A study of Mus musculus with 14 samples.

Results

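Elastin, fibrillins, lysyl oxidases, emilins and a microfibril-associated protein were followed in the cortex of 2 mouse models of the microRNA family miR-29. The group holds 10 genes of the 24444 listed in each deposited table, namely Eln, Fbn1, Fbn2, Lox, Loxl1, Loxl2, Loxl3, Emilin1, Emilin2 and Mfap2. They were chosen by symbol, and all 10 were present in both tables. Polyadenylated RNA of whole cortex was sequenced from 14 mice. The first model had both miR-29 clusters (miR-29ab1 and miR-29b2c) floxed and deleted with Nestin-Cre, and these miR29Nestin mice (n = 3) were set against miR29WT mice (n = 3) at postnatal day 40. The second model, Dnmt3a-mi5 (n = 4), kept miR-29 and carried a CRISPR knock-in in the 3′ UTR of the DNA methyltransferase gene Dnmt3a, where 5 sites for the microRNA were mutated. It was set against Dnmt3a-WT (n = 4) at an age of 4.5 months. The labels do not say whether the miR29WT mice carried the floxed alleles or the Cre.

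Nestin-Cre acts in neural progenitors and therefore in the neurons and glia that come from them, while most cells of vessel walls and meninges come from other lineages. Each library is a mixture of all these cells. In such bulk samples, fewer cells of a type and less RNA per cell cannot be told apart.

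Elastic fibres give arteries, skin and lung their recoil. Their core is elastin, laid down on a scaffold of microfibrils made mainly of fibrillins, and copper-dependent lysyl oxidases oxidise lysine side chains of elastin and collagens so that the chains can be cross-linked. Emilins and microfibril-associated proteins lie at the border of core and scaffold. In brain, elastic fibres are found mostly in the walls of arteries and in the meninges. Mature miR-29 binds target RNAs through its seed, the stretch at bases 2 to 8 that pairs with the RNA, and extracellular matrix genes, elastin and fibrillin among them, are well-known targets of the family.

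The 3 mature forms removed in the miR29Nestin mice are shown because they share 1 seed, printed in capitals. The sequences are those of RefSeq (GRCm38.p6).
mmu-miR-29a-3p: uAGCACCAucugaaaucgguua
mmu-miR-29b-3p: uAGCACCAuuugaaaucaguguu
mmu-miR-29c-3p: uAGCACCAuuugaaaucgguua

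The letters TGGTGCT, which pair with that seed, were searched on the transcript strand of the longest annotated 3′ UTR of each gene (GENCODE M21, GRCm38). Of 21004 genes with a UTR, 13.1% held at least 1 match. Among the 10 genes, 7 held one. Eln and Lox held 3 each, Fbn1 and Loxl2 held 2 each, and Fbn2, Emilin2 and Mfap2 held 1 each. Loxl1, Loxl3 and Emilin1 held none. Long UTRs hold matches more often, so each gene was also set beside UTRs of similar length. A match was present in 12% of UTRs like that of Eln (1188 nt), in 9.78% of those like Fbn1 (992 nt), in 4.41% of those like Mfap2 (404 nt) and in 27.2% of those like Lox (3160 nt). A match is a description of letters and not a measured binding site.

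The matches of the genes whose miR29Nestin and miR29WT libraries did not overlap are given here, with the match in capitals, its position in the UTR counted from the first base after the stop codon, and its place in GRCm38. The deposited files hold symbols and no coordinates.
Eln match 1, position 38, chr5:134703737-134703743, minus strand: gacctcatcaacgtTGGTGCTa
Eln match 2, position 285, chr5:134703490-134703496, minus strand: tctccaagggaaatTGGTGCTa
Eln match 3, position 298, chr5:134703477-134703483, minus strand: ttggtgctacatgtTGGTGCTt
Fbn1 match 1, position 406, chr2:125301174-125301180, minus strand: ttctgttgtctgttTGGTGCTa
Fbn1 match 2, position 656, chr2:125300924-125300930, minus strand: gtgagggtttgtaaTGGTGCTt
Loxl2 match 1, position 1629, chr14:69694748-69694754, plus strand: cccagctcatggaaTGGTGCTa
Loxl2 match 2, position 1991, chr14:69695110-69695116, plus strand: gatagcattgtgaaTGGTGCTa
Emilin2 match 1, position 277, chr17:71252473-71252479, minus strand: gggttgaatctactTGGTGCTg
Matches 2 and 3 of Eln lie so close that the window of match 3 contains match 2. Matches 1 and 2 of Eln, match 1 of Fbn1 and both matches of Loxl2 are followed by an A, the base that extends the match opposite the first base of the microRNA.

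The miR29 libraries held 9.18 to 14.4 M reads, as recovered from the deposited values, while the Dnmt3a table does not give its read depth. Levels are given below as normalised counts, obtained by inverting the variance-stabilising transformation of the deposited log2 values, and differences (mutant minus wild type) on the deposited log2 scale, which compresses low genes. Dnmt3a, the check of the labels, had a mean of 5529 normalised counts in miR29Nestin (SD 299.6) and 1662 in miR29WT (SD 59.3), with n = 3 each, and of 2080 in Dnmt3a-mi5 (SD 151) and 1145 in Dnmt3a-WT (SD 84.6), with n = 4 each. All 10 neuronal markers examined were above the test's minimum level in both tables. Nothing in the labels ties a library to a litter or culture, so p-values measure the spread between these samples.

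Eln, the elastic core itself, was the gene of the group that differed most between miR29Nestin and miR29WT. Its level was 217 normalised counts in miR29Nestin 1, 217 in miR29Nestin 2 and 192 in miR29Nestin 3, against 76.8, 89.4 and 91.4 in miR29WT 1, 2 and 3. The lowest miR29Nestin library stood above the highest miR29WT library by a wide margin relative to the spread within either group. The means were 209 ± 14.3 and 85.9 ± 7.92 (SD, n = 3 each), a ratio of 2.43. On the deposited scale Eln rose by 0.65 (SE 0.07, 95% interval 0.51 to 0.80, limma adjusted p = 0.000106). The exact two-sided permutation test gave p = 0.1, the smallest that 3 libraries against 3 can give. Eln kept its call in each of the 14 alternatives run, with adjusted p from 4.52e-05 to 0.00935.

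Fbn1, the main fibrillin of the microfibril scaffold, also passed the test, but narrowly. Its level was 156, 126 and 152 normalised counts in miR29Nestin 1, 2 and 3 and 116, 107 and 92.2 in miR29WT 1, 2 and 3. The groups did not overlap, although miR29Nestin 2 and miR29WT 1 lay close together. The means were 145 ± 16.1 and 105 ± 12.1 (SD, n = 3 each), a ratio of 1.38, and the difference was 0.23 (SE 0.07, limma adjusted p = 0.0484). The call was lost in 10 of 14 alternatives, with adjusted p from 0.037 to 0.17 over all of them. Leaving out single libraries ended it in 5 of 6 cases: the adjusted p was 0.123 without miR29Nestin 1, 0.11 without miR29Nestin 3, 0.0506 without miR29WT 1, 0.108 without miR29WT 2 and 0.17 without miR29WT 3.

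These were the 2 calls among the 4 genes of the group that reached the minimum level of 48 normalised counts. In the same comparison 19.1% of all 12014 tested genes were called, 9.02% higher and 10% lower. The median difference was 0.165 over the 4 tested genes of the group and -0.0052 over all tested genes. With no minimum level it was 0.059 over all 10 genes and 0.0003 over all genes that vary.

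**Figure D1:**
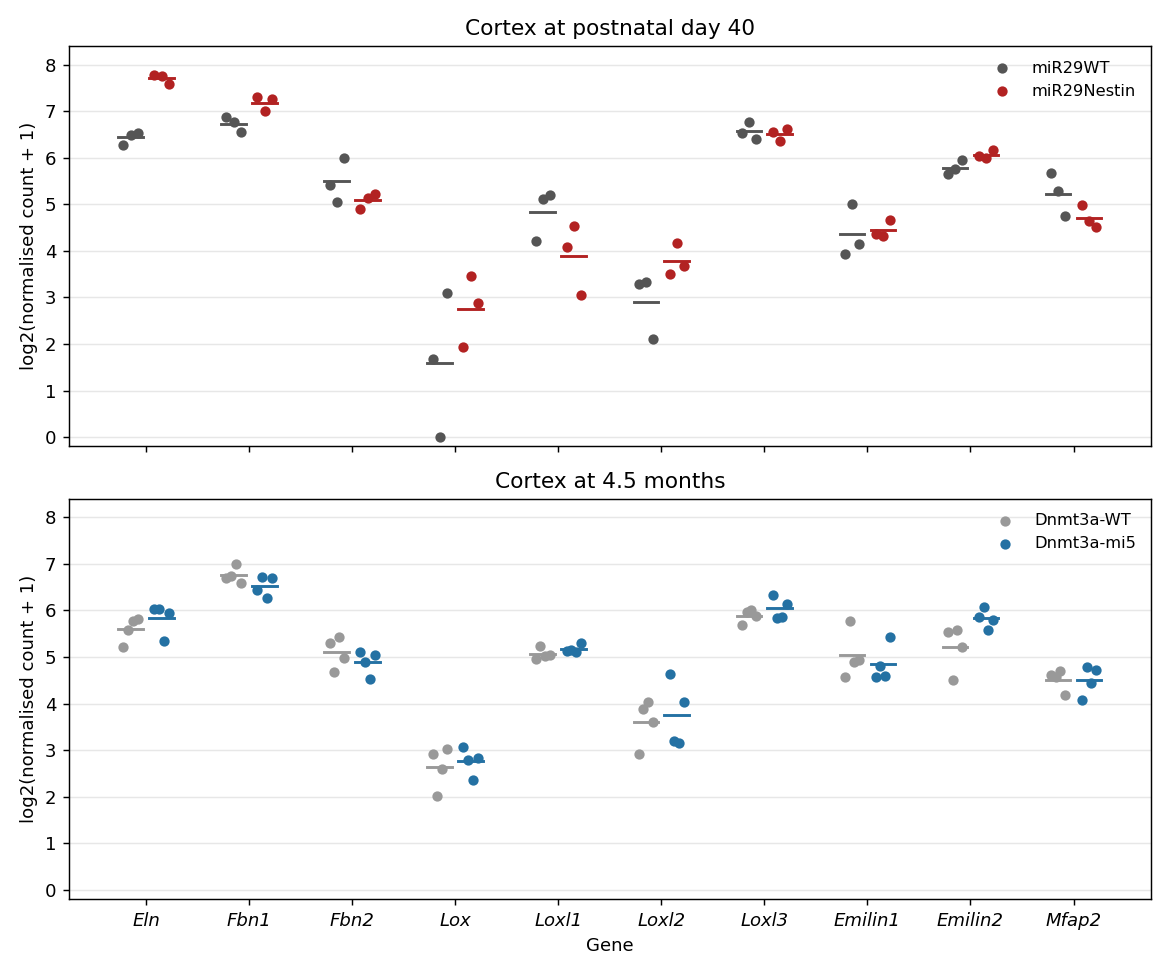
Levels of the 10 genes in every library, as log2(normalised count + 1), with miR29WT and miR29Nestin (n = 3 each) in the upper panel and Dnmt3a-WT and Dnmt3a-mi5 (n = 4 each) in the lower. Points are libraries and bars are group means; Eln of miR29Nestin stands apart from miR29WT (192 to 217 against 76.8 to 91.4 normalised counts), while no gene separates in the lower panel.

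The lysyl oxidases, which prepare elastin and collagen for cross-linking, were mostly too low for the test. Loxl3 was the family member with enough counts. Its level was 92.3, 81.2 and 97.0 normalised counts in miR29Nestin 1, 2 and 3 and 91.1, 107 and 83.9 in miR29WT 1, 2 and 3, and the groups overlapped. The difference was -0.03 (95% interval -0.18 to 0.13, limma adjusted p = 0.831), so a change as large as that of Eln lies outside the interval. Its sign turned when miR29Nestin 2 or miR29WT 2 was left out.

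Loxl2, which also acts on collagen IV of basement membranes, was low in every library. It stood at 10.3, 17.0 and 11.8 normalised counts in miR29Nestin 1, 2 and 3 against 8.77, 9.06 and 3.32 in miR29WT 1, 2 and 3. The groups did not overlap, although the 10.3 of miR29Nestin 1 and the 9.06 of miR29WT 2 lay close together. The ratio of the means was 1.85. Without the minimum level the difference was 0.14 (95% interval -0.01 to 0.30, limma adjusted p = 0.244), which did not pass.

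Loxl1, the paralogue most closely tied to elastic fibre upkeep, stood at 15.8, 22.1 and 7.25 normalised counts in miR29Nestin 1, 2 and 3 and at 17.6, 33.7 and 35.7 in miR29WT 1, 2 and 3. The groups overlapped through miR29WT 1. The difference was -0.22 (95% interval -0.41 to -0.02, limma adjusted p = 0.139 without the minimum level), opposite in sign to Eln and not past the threshold. Lox itself, the founding enzyme of the family, held 0 to 10.04 normalised counts, with miR29WT 2 at 0, and its groups overlapped. The ratio of its means was 1.98, from a few reads a library. Without the minimum level the difference was 0.15, with a 95% interval from -0.05 to 0.36 that includes 0.

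Emilin2, a glycoprotein of the elastin and microfibril border, stood at 64.3, 63.2 and 70.7 normalised counts in miR29Nestin 1, 2 and 3 and at 49.4, 53.1 and 60.7 in miR29WT 1, 2 and 3. The groups were next to each other without overlap. The difference of 0.10 (95% interval -0.04 to 0.25, limma adjusted p = 0.297) did not pass. Emilin1, its paralogue, ranged from 19.0 to 24.5 normalised counts in miR29Nestin and from 14.3 to 31.1 in miR29WT, with a difference of 0.01 (95% interval -0.15 to 0.18).

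Fbn2, the fibrillin most used during development, and Mfap2, a small protein that binds fibrillin microfibrils, had lower means in miR29Nestin. Fbn2 ranged from 28.9 to 36.3 normalised counts in miR29Nestin and from 32.3 to 63.1 in miR29WT, and Mfap2 from 21.7 to 30.6 and from 25.8 to 49.7. Both pairs of groups overlapped. Without the minimum level the differences were -0.13 for Fbn2 (95% interval -0.31 to 0.05) and -0.15 for Mfap2 (95% interval -0.32 to 0.02).

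Across the group, 4 of 10 genes had groups that did not overlap (Eln, Fbn1, Loxl2 and Emilin2), all with miR29Nestin above miR29WT. With no minimum level, 14.9% of all genes that vary had miR29Nestin wholly above miR29WT and 29.5% did not overlap in either direction. Over the tested genes the latter share was 37.3%. All 4 hold a seed match. The 7 genes with a match had a median difference of 0.14, with 5 above zero, and the 3 without one had a median of -0.03, with 1 above zero. Lox, Fbn2 and Mfap2 also hold a match and their groups overlapped. The 29 other genes of elastic fibre assembly gave the opposite order, with a median of 0.017 for the 6 with a match (3 above zero) and 0.095 for the 23 without one (13 above zero).

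**Figure D2:**
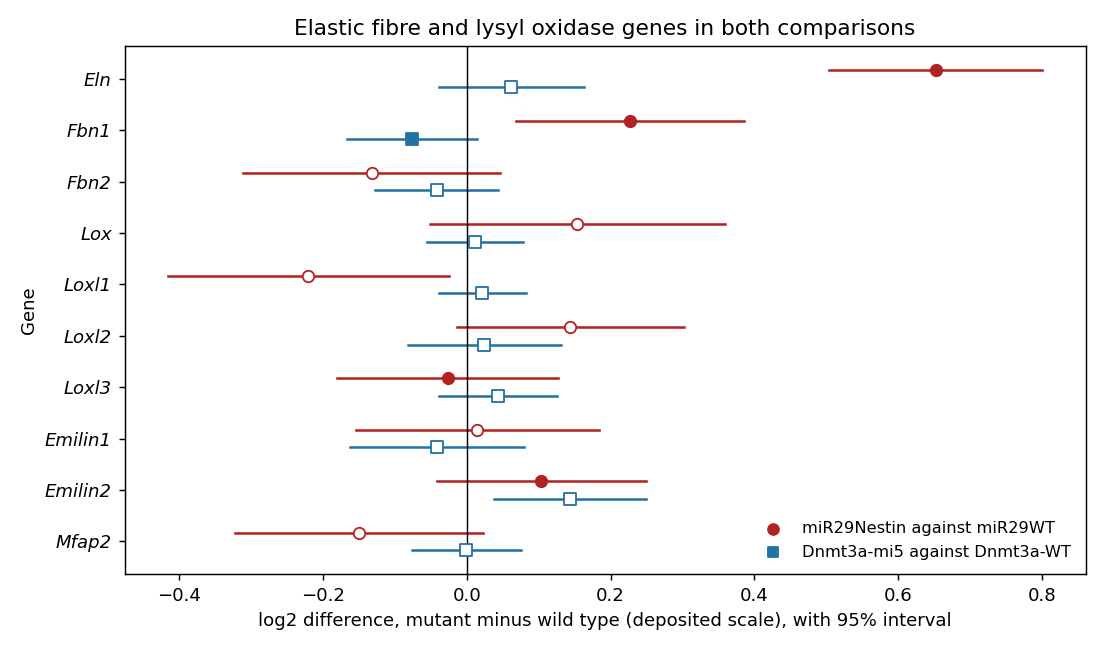
Difference of mutant minus wild type on the deposited log2 scale for each gene in both comparisons. The 95% intervals of all genes are from the limma fit without a minimum level. Filled symbols are genes above the minimum level of the test and open symbols are genes below it. Eln (0.65) and Fbn1 (0.23) of the miR29 comparison lie to the right of zero; the Dnmt3a-mi5 difference of Fbn1 is -0.08.

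In the Dnmt3a-mi5 comparison, where miR-29 itself was intact, 0 of the 10 genes were called, and this held in each of the 16 alternatives run. Only the settings with no minimum level tested all 10 genes, and every other setting tested Fbn1 alone. Fbn1 was the 1 gene above the minimum level of this table (80.1 normalised counts). Of all 10670 tested genes 0.797% were called by limma, 24 higher and 61 lower. An additive effect that split the 8 libraries into 2 sets of 4 had been removed from this table before deposit, and with a term for it 13 genes (0.122%) were called. At an unadjusted p under 0.05, with no minimum level, 1 of the 10 genes passed, and that was Emilin2. In that setting 14.4% of all genes passed at an unadjusted p under 0.05, so 1 of 10 is near the background, and 0.133% were called. Dnmt3a libraries are numbered by column order.

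Eln stood at 64.4, 64.9, 39.5 and 61.0 normalised counts in Dnmt3a-mi5 1 to 4 and at 36.0, 46.9, 54.1 and 55.8 in Dnmt3a-WT 1 to 4. Of the 4 mutant libraries, 3 lay above every wild-type library, and Dnmt3a-mi5 3 lay among the lowest of both groups. The difference was 0.06 (95% interval -0.04 to 0.16, limma adjusted p = 0.592 without the minimum level). The corresponding difference in miR29Nestin was 0.65. The tables were normalised separately, and the difference between these 2 values was not tested.

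Fbn1 stood at 85.8, 104, 76.2 and 103 normalised counts in Dnmt3a-mi5 1 to 4 and at 103, 105, 126 and 95.9 in Dnmt3a-WT 1 to 4. The groups overlapped. The difference was -0.08 (95% interval -0.17 to 0.02, limma adjusted p = 0.358), and its sign was opposite to the one in miR29Nestin.

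Emilin2 had the largest difference of the group here, with 57.5, 66.5, 46.9 and 54.9 normalised counts in Dnmt3a-mi5 1 to 4 and 45.4, 21.8, 47.1 and 35.9 in Dnmt3a-WT 1 to 4. The groups overlapped only because Dnmt3a-mi5 3 lay just under Dnmt3a-WT 3. The means were 56.5 ± 8.07 and 37.5 ± 11.6 (SD, n = 4 each) and their ratio was 1.504. The difference of 0.14 (SE 0.05) had a limma adjusted p of 0.206 without the minimum level, and the exact two-sided permutation test over 70 assignments gave p = 0.0571.

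The other genes differed less in this comparison. Loxl3 ranged from 56.1 to 80.2 normalised counts in Dnmt3a-mi5 and from 50.9 to 63.0 in Dnmt3a-WT (difference 0.04), Loxl1 from 33.5 to 38.3 and from 29.9 to 36.9 (0.02), and Loxl2 from 7.90 to 23.9 and from 6.52 to 15.4 (0.02). Lox ranged from 4.15 to 7.35 and from 3.02 to 7.19 (0.01). Emilin1 ranged from 22.9 to 42.1 and from 22.9 to 53.9 (-0.04), Fbn2 from 22.2 to 33.5 and from 24.7 to 41.9 (-0.04), and Mfap2 from 15.8 to 26.6 and from 17.2 to 24.8 (-0.0003). All 10 genes had overlapping groups, whereas 8.69% of all genes that vary, and 12% of the tested genes, did not overlap.

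Levels can be set between genes per length of the longest annotated transcript, and the order was then similar in both wild-type groups. In miR29WT the level per kb of transcript was highest for Mfap2 (35.2 normalised counts per kb), followed by Loxl3 (23.0), Eln (22.3), Emilin2 (13.8), Fbn1 and Loxl1 (8.79 each), Emilin1 (5.36), Fbn2 (4.14), Loxl2 (1.33) and Lox (0.682). The library ranges separated Eln from Emilin2, Emilin2 from Loxl1, and Fbn2 from Loxl2, while every other pair of neighbours in this order overlapped. In Dnmt3a-WT the order began with Mfap2 (20.6), Loxl3 (14.2) and Eln (12.5) and ended with Fbn2 (3.07), Loxl2 (2.20) and Lox (1.15), and there the ranges separated neighbours at 2 places, Mfap2 from Loxl3 and Emilin1 from Fbn2. In miR29Nestin, Eln moved to the first place with 54.1 ± 3.70 normalised counts per kb (SD, n = 3), ahead of Mfap2 with 23.7 ± 4.31. In Dnmt3a-mi5 it stayed at the third place with 14.9 ± 3.14 (SD, n = 4).

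The rest of the elastic fibre assembly machinery was read from a list of 29 further genes: fibulins, latent TGF-beta binding proteins, other microfibril and emilin-family proteins, ADAMTS-type proteins that act on microfibrils, small proteoglycans, TGF-beta ligands and the proteases that process fibre precursors. In miR29Nestin, 20 of the 29 reached the minimum level, of which 5 rose and 1 fell. The median difference was 0.050 over all 29. The share called over all tested genes was 19.1%. At an unadjusted p under 0.05, 10 of the 20 passed, against 33% of all tested genes.

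On the deposited scale the largest rise among the called genes was that of Adamts17, a secreted metalloproteinase linked to fibrillin microfibrils. It stood at 510, 425 and 406 normalised counts in miR29Nestin 1, 2 and 3 and at 52.6, 81.6 and 86.4 in miR29WT 1, 2 and 3, a ratio of 6.08 between the means with no overlap. The difference was 1.48 (limma adjusted p = 5.49e-06). Adamts17 holds 3 seed matches in a 3′ UTR of 3105 nt, and 27.2% of UTRs of similar length hold at least 1. They are shown because this gene had the largest called rise on that scale and as many matches as Eln.
Adamts17 match 1, position 1515, chr7:67151581-67151587, plus strand: tcttgatttattacTGGTGCTg
Adamts17 match 2, position 2237, chr7:67152303-67152309, plus strand: gtctctcagtcttaTGGTGCTa
Adamts17 match 3, position 2653, chr7:67152719-67152725, plus strand: ctgtggcagtagccTGGTGCTt

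Adamtsl5, an ADAMTS-like protein without a protease domain that binds fibrillins, stood at 222 and 223 normalised counts in miR29Nestin 1 and 2 and at 255 in miR29Nestin 3, against 110, 90.2 and 116 in miR29WT 1, 2 and 3. The groups lay far apart, with a ratio of 2.22 and a difference of 0.62 (limma adjusted p = 0.000215). Adamtsl5 holds no seed match. Adamts17, Adamtsl5 and Eln kept their calls in every alternative in which they were tested.

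Smaller rises were found for Ltbp1, which anchors latent TGF-beta to microfibrils (152 ± 10.9 against 98.5 ± 17.7 normalised counts, difference 0.31, limma adjusted p = 0.0144), and for the fibulin Fbln2 (133 ± 10.3 against 85.8 ± 11.8, difference 0.30, limma adjusted p = 0.0133). The ligand Tgfb3 rose by 0.29 (262 ± 18.2 against 188 ± 31.0 normalised counts, limma adjusted p = 0.0235). Ltbp4, which helps to place elastin on microfibrils, fell by 0.27 (672 ± 64.2 against 845 ± 40.6, limma adjusted p = 0.0172; SD and n = 3 throughout). None of these 4 genes holds a seed match, and the groups of each did not overlap. Their calls did not all hold when single libraries were left out. Without miR29WT 3 all 4 were lost, with adjusted p of 0.0649 for Ltbp1, 0.0616 for Fbln2, 0.0687 for Tgfb3 and 0.0672 for Ltbp4. The differences there were 0.27, 0.25, 0.30 and -0.26 in the same order, and calls over all genes fell from 2289 to 1419. Without miR29Nestin 2, Fbln2 (0.0509), Tgfb3 (0.0933) and Ltbp4 (0.0566) were lost, and Tgfb3 was also lost without miR29WT 1 (0.0729) and Ltbp4 without miR29WT 2 (0.0743).

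A pair of genes below the minimum level, named here after their values were seen, also had large ratios. By ratio of the means Ltbp2 (6.66) exceeded Adamts17, and Emilin3 stood at 5.28. Ltbp2, a microfibril-bound relative of Ltbp1 that does not bind latent TGF-beta, stood at 43.8, 19.1 and 32.6 normalised counts in miR29Nestin 1, 2 and 3 against 5.48, 3.88 and 4.98 in miR29WT 1, 2 and 3. Emilin3, the third emilin, stood at 10.2, 9.95 and 14.6 against 1.07, 1.32 and 4.18. The groups of both were apart, with limma adjusted p of 0.00155 and 0.0142 when no minimum was set, a setting in which 12.8% of all genes were called.

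**Figure D3:**
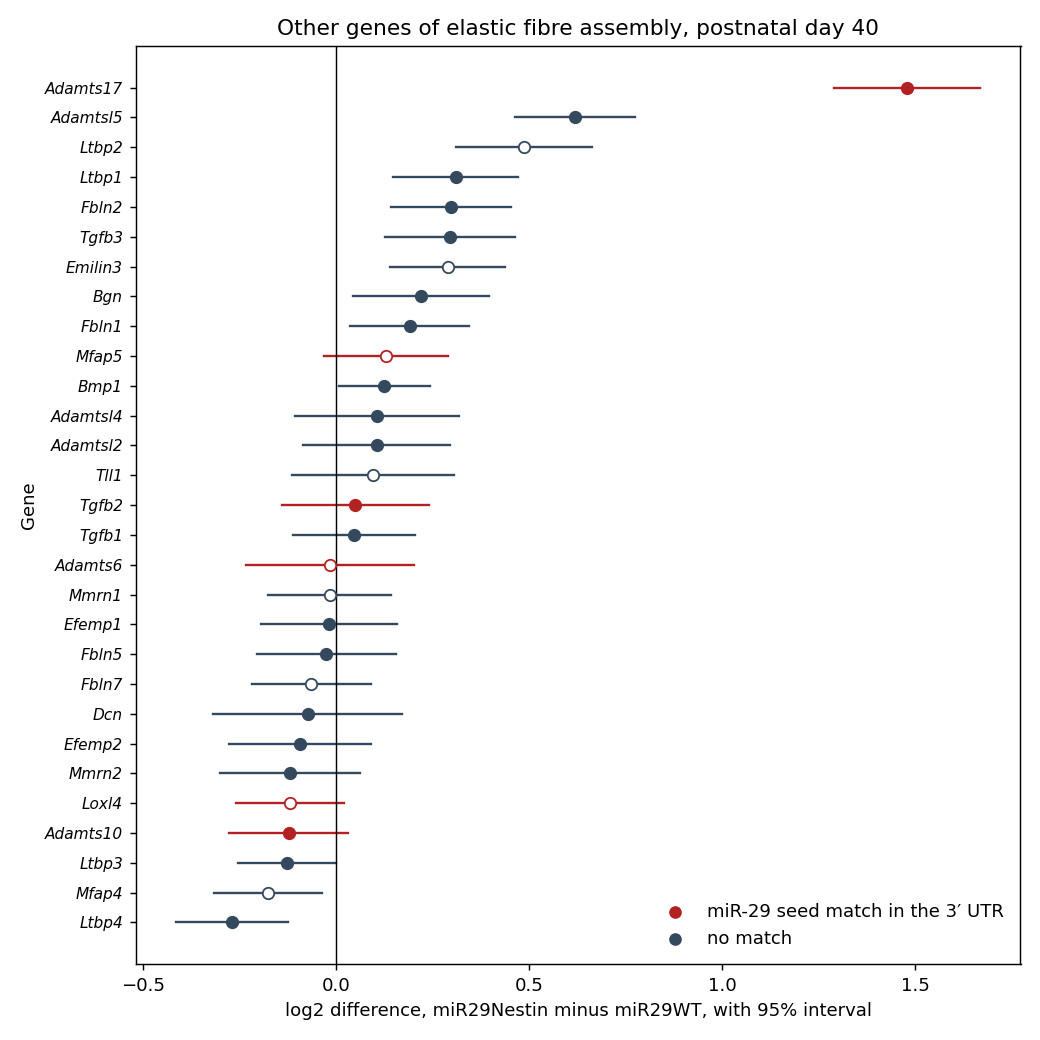
Difference of miR29Nestin minus miR29WT on the deposited log2 scale (n = 3 each) for the 29 further genes of elastic fibre assembly. The 95% intervals of all genes are from the limma fit without a minimum level. Filled circles are above the minimum level, open circles below it, and red marks a seed match in the 3′ UTR. Adamts17 (1.48) and Adamtsl5 (0.62) lie farthest to the right and Ltbp4 (-0.27) farthest to the left.

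Seed matches were present in 6 of the 29 genes, and 1 of the 5 that rose held one. In Dnmt3a-mi5, 13 of the 29 reached the minimum level and 0 were called by limma, against 0.797% of all genes, while 3 passed at an unadjusted p under 0.05, against 19% of all tested genes. Adamts17 ranged from 54.9 to 74.5 normalised counts in Dnmt3a-mi5 and from 64.1 to 80.6 in Dnmt3a-WT, and Adamtsl5 from 70.6 to 104 and from 53.8 to 97.2, so both genes overlapped there. Bmp1, the protease that trims procollagen and pro-lysyl oxidase, is named here after its values were seen: it was called lower in that comparison when Dnmt3a-WT 2 was left out (difference -0.18, limma adjusted p = 0.0438), against -0.16 and an adjusted p of 0.0812 with all libraries.

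Some markers of other cells also differed between the groups at postnatal day 40. The summed level of 15 markers of leptomeningeal fibroblasts, cells that make much of the matrix around the brain, was 2354, 2292 and 1825 normalised counts in miR29Nestin 1, 2 and 3 and 899, 1458 and 1532 in miR29WT 1, 2 and 3, with no overlap. Of the 15, 8 were tested and 3 rose (Mgp, Islr and Igf2), and none of the 15 was at 0 in any library. Igf2 was the largest part of the sum, with 585 ± 170 normalised counts in miR29WT and 1162 ± 146 in miR29Nestin (SD, n = 3 each). Taken singly, Igf2, Islr and Mgp were wholly higher in miR29Nestin, and each of the other markers overlapped. The means of all 15 were higher in miR29Nestin, with ratios to miR29WT from 1.065 (Slc22a6) to 1.986 (Igf2). With no minimum level the median difference was 0.087 over the 15 markers and 0.0003 over all genes that vary. With no minimum level, 14.9% of all genes that vary were wholly higher. With the mean of these markers as a term in the model, Eln still passed (difference 0.56, limma adjusted p = 0.00935), as did Adamts17, Adamtsl5 and Ltbp4, while Fbn1 (0.32, adjusted p = 0.107), Ltbp1 (0.26, 0.222), Fbln2 (0.33, 0.11) and Tgfb3 (0.16, 0.439) did not. The differences of Fbn1 and Fbln2 were as large as without the term, that of Ltbp1 was somewhat smaller (0.26 against 0.31) and that of Tgfb3 was 0.16 against 0.29. That model called 703 genes in all, against 2289 without the term. The marker mean includes Mgp, Islr and Igf2, which differ between the groups. The term and the genotype can therefore not be told apart, for the calls kept as for those lost.

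Of 10 markers of smooth muscle and pericytes, 8 were tested. Pdgfrb (difference 0.28) and Myh11 (0.28) rose and Rgs5 fell by 0.35, and the sums overlapped (2443 to 2915 normalised counts in miR29Nestin, 2810 to 3103 in miR29WT). Rgs5 made up most of that sum (1490 ± 123 normalised counts in miR29Nestin, 1944 ± 103 in miR29WT; SD, n = 3 each). The means of Acta2, Myh11, Tagln and Pdgfrb were 1.314 to 1.499 times those of miR29WT. The same ratio was 1.169 for Cnn1, 1.023 for Abcc9, 0.987 for Kcnj8, 0.898 for Notch3, 0.766 for Rgs5 and 0.509 for Higd1b. Higd1b, below the minimum level, was wholly lower (7.39 to 25.9 against 26.7 to 43.1 normalised counts). Of 10 endothelial markers 0 were called by limma, against 19.1% of all tested genes, and 3 passed at an unadjusted p under 0.05, against 33%. Their sums overlapped as well (2928 to 3467 against 2873 to 3022). Neural and glial markers moved as well. Summed astrocyte markers were wholly higher in miR29Nestin (65875 to 71144 normalised counts against 60775 to 62584), where Gjb6, Gfap, Gja1 and Slc1a2 rose and Slc1a3 fell. Slc1a2 made up most of that sum (42994 ± 2245 normalised counts in miR29Nestin, 38371 ± 874 in miR29WT, SD, n = 3 each). Aldh1l1 was wholly lower (569 to 684 against 691 to 763) but was not called (limma adjusted p = 0.0567). Summed neuron markers were wholly lower (93657 to 95947 against 98211 to 105464), where Gad2, Slc17a7, Tbr1 and Syt1 were among those that fell and Gad1 rose. Of 10 oligodendrocyte markers 4 rose (Mobp, Pdgfra, Mbp and Olig1), and their sums overlapped. The part of all these cells in the rise of Eln was not tested, and the fibroblast term above cannot separate it from the genotype.

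In the Dnmt3a table the fibroblast sums were 1588 to 2568 in Dnmt3a-mi5 and 1598 to 2596 in Dnmt3a-WT. The smooth muscle and pericyte sums there were 1355 to 1442 against 1252 to 1287 normalised counts, without overlap, with 0 of 4 tested markers called by limma and 1 at an unadjusted p under 0.05. Astrocyte sums (61694 to 64093 in Dnmt3a-mi5 against 69442 to 73660) and microglia sums (3892 to 4297 against 4330 to 4550) were wholly lower, with Slc1a2 and with Cx3cr1 and P2ry12 called. Slc1a2 made up most of the astrocyte sum (41632 ± 1159 against 49580 ± 2512, SD, n = 4 each). The means of Aldh1l1, Gfap, Gjb6 and Aldoc were not lower, nor were those of the microglia markers Tmem119, C1qa, C1qb, Aif1 and Trem2. Means of the other markers of both lists were lower. Endothelial sums overlapped (1342 to 1613 against 1169 to 1397), with Flt1 called higher. The sums of 8 choroid plexus markers varied widely between libraries and overlapped (2708 to 20174 in Dnmt3a-mi5, 2283 to 17542 in Dnmt3a-WT), with 0 of 5 tested markers called.

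**Figure D4:**
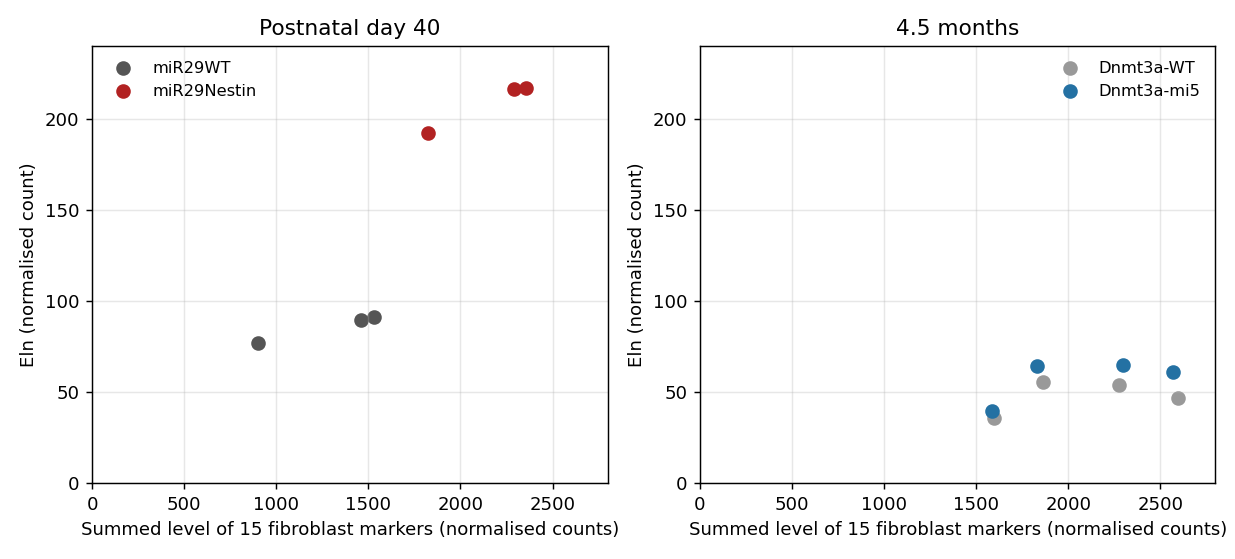
Level of Eln against the summed level of 15 leptomeningeal fibroblast markers, both in normalised counts, in each library of the miR29 table (left, n = 3 each) and of the Dnmt3a table (right, n = 4 each). At postnatal day 40 the miR29Nestin libraries lie above and to the right of miR29WT. At 4.5 months the marker sums reach up to 2596 with Eln between 36.0 and 64.9. The lowest sums there, 1588 in Dnmt3a-mi5 3 and 1598 in Dnmt3a-WT 1, go with the lowest Eln (39.5 and 36.0). The highest sum, in Dnmt3a-WT 2, does not go with the highest Eln.

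The genes whose values were most like those of Eln were ranked by the Pearson correlation over the 14 libraries, after each table was centred on its own means, among 10610 genes above the minimum level in both tables. They were Pcid2 (r = 0.974), Nxn (0.973), Retsat (0.972), Zfp651 (0.971) and Pard6a (0.971). These correlations are a description, and 6 of the 14 libraries carry the group difference of miR29Nestin and miR29WT. Within the miR29 table the 5 correlations ranged from 0.977 (Pcid2) to 0.994 (Zfp651), and within the 8 Dnmt3a libraries from 0.607 (Zfp651) to 0.994 (Pcid2).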

How the data were processed

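Stranded polyadenylated RNA libraries were made from cortex with RNeasy and TruSeq kits (miR29 mice) or Direct-zol and KAPA kits (Dnmt3a mice), per the labels' protocols. Named in the submitters' processing notes, without versions or roles, are the tools DESeq2, Salmon, STAR and cutadapt and the builds mm9 and hg19. The authors deposited 1 table per model, with log2 values from the variance-stabilising transformation of DESeq2 made over the libraries of that table, per the names of the deposited tables and the processing notes. Each table was tested on its own.

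Normalised counts were obtained by inverting the transformation, using the zero level of the miR29 table (6.5861) and of the Dnmt3a table (7.6295). In the miR29 table this also gave reads per library, with 85.3 to 88.6% of low values within 0.05 of a whole number. In the Dnmt3a table the read depth is unknown, column names repeat, so that a column names its group and no individual mouse, and counts are approximate. There the means of 2 sets of 4 libraries (1 and 2 of each group against the others) were equal for every gene within 5.5e-09, which shows that an additive effect had been removed. The next smallest such figure over other sets was 0.538, and 2546 genes have values below the zero level.

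The comparisons were made in R 4.3.3 with limma 3.58.1 (linear model, empirical Bayes with a mean-variance trend, Benjamini-Hochberg adjustment over all genes tested, call at an adjusted p under 0.05). The minimum level for testing was a mean of 1 log2 unit over the table's lowest value, which is about 48 and 80.1 normalised counts. Genes under that minimum were fitted without it. The method was tested on simulated data. Alternatives were no minimum, a stricter minimum of 2, other variance priors, centring, log2(normalised count + 1), a replicate block, sex from Y-linked reads (present in 1 of 3 miR29Nestin and 2 of 3 miR29WT libraries), a fibroblast marker term, a term for the removed effect and leaving out each library. In the miR29 table same-numbered libraries deviated together (correlations 0.335, 0.204 and 0.186 over 12014 genes). The labels give only the replicate numbers and do not say what same-numbered mice share.

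The 10 genes and the gene lists were chosen with earlier results of these data known. Named beside the 10 were assembly genes called in either comparison, the 5 genes most correlated with Eln, and Dnmt3a. Counts, sites and summaries were computed with scipy 1.17.1, pandas 2.3.3 and numpy 2.4.6 under Python 3.11.15. Mature microRNAs came from RefSeq (GRCm38.p6) and UTRs, transcript lengths and coordinates from GENCODE M21 (GRCm38), which is not the build named by the submitters.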

Additional observations from a re-analysis of the deposited data

Results flagged for a closer look

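Eln in Dnmt3a-mi5 3 stood apart from its group. It held 39.5 normalised counts against 61.0 to 64.9 in the other 3 Dnmt3a-mi5 libraries, and on the deposited log2 scale the gap to the nearest of them was 0.865 of the whole range, above Dixon's 95% critical value for 4 samples. It was the 1 such case in 34 groups of 4 libraries examined, and chance flags about 1 in 20. Dnmt3a-mi5 3 also had the lowest summed fibroblast markers (1588) and choroid plexus markers (2708) of its group. Whether tissue content bears on its Eln value was not tested.

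A pair of assembly genes, named for this reason after their values were seen, moved in opposite directions in the 2 comparisons in every library. Groups that do not overlap were common, at 37.3% of all tested genes in miR29Nestin and 12% in Dnmt3a-mi5. The share of all genes that did so in opposite directions was not computed, so the pair cannot be set against a background. Ltbp3, a latent TGF-beta binding protein, differed by -0.13 in miR29Nestin (366 to 377 normalised counts against 410 to 425, limma adjusted p = 0.134) and by 0.12 in Dnmt3a-mi5 (468 to 508 against 392 to 456, limma adjusted p = 0.095). The first difference minus the second was -0.251. Bmp1 differed by 0.12 in miR29Nestin (1328 to 1348 normalised counts against 1152 to 1256, limma adjusted p = 0.119) and by -0.16 in Dnmt3a-mi5 (522 to 584 against 587 to 687, limma adjusted p = 0.0812), and the first minus the second was 0.281. Neither gene passed in either comparison. The tables were normalised separately and their log2 scales compress low genes unequally, so the differences between comparisons were not tested.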

How the results depend on the processing

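Eln, Adamts17 and Adamtsl5 kept their calls in miR29Nestin in each of the 14 alternatives that tested them. The number of the 10 genes called fell from 2 to 1 with no minimum level, with libraries centred on their median, with log2(normalised count + 1), with sex as a term and with the fibroblast markers as a term, and was 1 to 2 when single libraries were left out. The gene lost was Fbn1 each time. The stricter minimum left none of the 10 to test in either table. Assembly genes called went from 6 to 2 with the stricter minimum, where fewer were tested, to 3 with the fibroblast term, and to between 2 and 6 without single libraries. Over all genes 2289 calls became 703 with the fibroblast term and 1384 to 2313 without single libraries. Loxl3 turned from -0.03 to 0.0050 without miR29Nestin 2 and to 0.0179 without miR29WT 2, and ranged from -0.0615 to 0.0179 without single libraries.

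With the replicate number as a block in the miR29 table, 2 of the 10 genes, 7 assembly genes and 3037 genes in all were called, and it ended no call of the genes named here; the assembly gene added was Bgn. In the Dnmt3a table no such block was possible, because its column names repeat and its libraries carry no usable replicate numbers.

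In Dnmt3a-mi5 0 of the 10 genes were called in each of 16 alternatives. All 10 were tested only in the settings with no minimum level. Every other setting tested Fbn1 alone, so the rest could not be called there. Assembly genes called went from 0 to 1 (Bmp1) with the fibroblast term and to between 0 and 1 without single libraries. Over all genes 85 calls became 25 with no minimum, 13 with the term for the removed effect, 13 with both of these (a setting added after seeing the data) and 345 with the fibroblast term. Without single libraries they ranged from 9 to 176, the highest without Dnmt3a-WT 2. Apart from the settings with fewer genes or samples, the cause of these shifts was not tested. Low counts limit Lox, Loxl2, Loxl1, Emilin1, Fbn2 and Mfap2, which lay below the minimum level in both tables.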
